A study of Mus musculus with 4 samples.

Results

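The p53 target genes described here are 10 genes chosen by name: Cdkn1a, Mdm2, Plk2, Gadd45a, Ccng1, Bax, Sesn1, Trp53inp1, Btg2 and Trp53, the gene of p53 itself. The choice was made with earlier results of these data known. The shares of all measured genes set beside the counts below are thus a description and no test. The 10 genes were read by the probe sets that the platform annotation assigns to these symbols. This gave 16 probe sets for 8 of the 10 genes, out of 12393 genes named on the array. The annotation used here lists no probe set under Bax or Trp53, so these 2 genes were not analysed here. All 8 genes passed the level filter, which asked that the highest of the 4 values reach 20.04 intensity units, the median over all probe sets and arrays, as did 7461 genes in all and 15 of the 16 probe sets.

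The RNA came from primary keratinocytes of tail skin of C57BL/6 mice, cultured in serum-free medium on collagen-coated plates. All 4 groups carried a floxed Prdm1 gene, which encodes the transcriptional repressor Blimp-1. The groups were CKO 4OHT (CreER present, 4-hydroxytamoxifen from day 1 to day 3), CKO EtOH (CreER present, ethanol as the solvent over the same days), control 4OHT (no CreER, with 4-hydroxytamoxifen) and control EtOH (no CreER, with ethanol), all collected on day 5. CreER is a Cre recombinase that becomes active in the nucleus when 4-hydroxytamoxifen binds it. The sources used here do not give the promoter that drives CreER, the number and age of the mice or the floxed part of Prdm1. Each group had 1 array, so there is no spread between replicates and no test of a difference, and the small number of arrays limits all values below.

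p53 is a transcription factor that is kept scarce in unstressed cells because the ubiquitin ligase Mdm2 marks it for degradation. DNA damage and other stresses stabilise the protein, which then binds paired sequence elements near its target genes and raises inhibitors of the cell cycle, DNA repair factors, inducers of cell death and its own antagonist Mdm2. In the epidermis this response is known above all from the reaction to ultraviolet light. Since p53 is controlled mainly as a protein, its activity is commonly read from the transcripts of its targets, which also respond to other factors.

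The p53 element consists of 2 copies of a palindromic decamer, the p53 decamer consensus, and was searched in RefSeq windows of GRCm38.p6 that reach from 250 bases before to 50 bases after a gene start. Of the 8 measured genes, 7 had such windows, 9 windows in all (Trp53inp1 had none). A pair of adjacent decamers with at most 2 mismatches and both central C and G bases kept was present in 2 of the 9 windows, against 0.326% of all 32851 windows. An exact single decamer was present in 5 of the 9, against 8.36% of all windows. Both motifs read the same on either strand, and some of these genes are known as p53 targets through such sites. The search rule was also set after the windows were read, and Cdkn1a and Sesn1 enter with 2 windows each. The counts are thus a description of the windows, and the shares beside them are no test. The 3 windows below are shown because 2 hold the pair and the other belongs to Mdm2, the member furthest above all other arrays in CKO 4OHT. Capitals mark the pair in Cdkn1a and Ccng1 and the single exact decamer in Mdm2.
Cdkn1a, upstream start (chr17:29090729-29091028, plus strand): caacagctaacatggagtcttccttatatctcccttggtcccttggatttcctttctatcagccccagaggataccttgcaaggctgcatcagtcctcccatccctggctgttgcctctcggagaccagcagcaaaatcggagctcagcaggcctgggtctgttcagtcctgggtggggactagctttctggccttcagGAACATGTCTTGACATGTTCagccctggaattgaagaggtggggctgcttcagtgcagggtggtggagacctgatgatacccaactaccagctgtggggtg
Ccng1 (chr11:40755237-40755536, minus strand): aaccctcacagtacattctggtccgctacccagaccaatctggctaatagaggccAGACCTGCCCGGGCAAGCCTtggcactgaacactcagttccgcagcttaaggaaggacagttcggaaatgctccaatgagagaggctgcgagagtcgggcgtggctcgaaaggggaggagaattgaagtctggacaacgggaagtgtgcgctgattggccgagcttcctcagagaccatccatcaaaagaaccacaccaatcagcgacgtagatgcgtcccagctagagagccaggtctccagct
Mdm2 (chr10:117710709-117711008, minus strand): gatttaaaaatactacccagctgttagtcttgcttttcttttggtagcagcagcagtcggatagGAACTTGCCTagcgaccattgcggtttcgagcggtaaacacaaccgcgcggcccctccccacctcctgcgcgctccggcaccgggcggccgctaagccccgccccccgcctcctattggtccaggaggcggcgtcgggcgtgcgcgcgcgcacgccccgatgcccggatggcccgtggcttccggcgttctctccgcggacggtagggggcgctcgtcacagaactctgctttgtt

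The Cdkn1a pair, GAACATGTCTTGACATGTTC, has 1 mismatch in 20 bases and lies 51 to 32 bases before an upstream start, 2790 bases from the other Cdkn1a start, whose window holds no pair. The Ccng1 pair, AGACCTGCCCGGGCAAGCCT, also has 1 mismatch and lies 195 to 176 bases before the start. A pair with at most 1 mismatch was present in 0.067% of all windows. The Mdm2 window covers the upstream promoter, whereas the p53 elements of Mdm2 are known from the first intron, outside the window. The windows of Plk2, Gadd45a, Sesn1 and Btg2 hold no such pair. Decamers with bases between them were not searched, so that says nothing of such pairs within the windows or of elements elsewhere in these genes.

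The labels were checked first. Prdm1 (1420425_at) was lowest in CKO 4OHT, at 6.43, with 17.0 in CKO EtOH, 52.4 in control 4OHT and 20.7 in control EtOH. Both CKO values are under the level filter of 20.04, and the control EtOH value is barely above it. Whether this probe set covers the deleted part is not known. Esr1 (1421244_at) had 44.4 in CKO 4OHT, 54.3 in CKO EtOH, 18.2 in control 4OHT and 11.3 in control EtOH. Whether this probe set reads the CreER transcript is not known. Of 6 basal keratinocyte markers 5 passed the level filter, with Krt14 (6437 to 6663 on the 4 arrays), Krt5 (3298 to 3774) and Col17a1 (1584 to 1893) brightest. Itga6 ranged from 388 to 613, and Itgb4 had 551 in CKO 4OHT and 315 to 391 on the other arrays. Krt15 (10.6 to 15.5) was under the filter, as was the suprabasal marker Ivl (6.33 to 10.1). Of 6 fibroblast, 7 leukocyte and 5 endothelial markers, 1, 1 and 0 passed the level filter (Dcn, at most 26.1, and Cd3e, at most 28.9), and the summed levels of each list differed little, with 61.9 to 67.3 for fibroblasts, 75.3 to 79.6 for leukocytes and 34.6 to 42.9 for endothelial cells. Of 5 melanocyte markers 4 passed, at no more than 40.3, with sums of 129 in CKO 4OHT, 101 in CKO EtOH, 113 in control 4OHT and 112 in control EtOH. Krt1, a keratin of differentiating cells, had 21.8 in CKO 4OHT, 205 in CKO EtOH, 246 in control 4OHT and 136 in control EtOH, but the other measured suprabasal markers, Krt10, Krtdap and Dsc1, were not lowest in CKO 4OHT. The summed level of the 5 suprabasal markers was 1660 in CKO 4OHT, 1633 in CKO EtOH, 2254 in control 4OHT and 1140 in control EtOH. The part of differentiating cells and of melanocytes in the results for the p53 target genes was not tested.

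Most of the p53 target genes were higher in CKO 4OHT than in any other culture. Cdkn1a, Mdm2, Plk2, Gadd45a, Ccng1 and Btg2, 6 of the 8 measured genes, had their highest value there, whereas 31.6% of all measured genes did. Sesn1 went the other way and had its lowest value in CKO 4OHT, and Trp53inp1 was highest in control EtOH. Over the 8 genes the median log2 difference was 0.80 against CKO EtOH and 0.69 against control 4OHT, beside medians of 0.01 and 0.01 over all 7461 measured genes. The differences were moderate in size. At least 2-fold higher were 2 of 8 genes in each comparison, against 1.78% and 1.45% of all measured genes. They were Plk2 and Mdm2 against CKO EtOH, both marginal by their brightest probe sets, and Gadd45a and Mdm2 against control 4OHT. RNA was taken from whole cultures, so more RNA per cell and more cells that express a gene cannot be told apart.

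**Figure D1:**
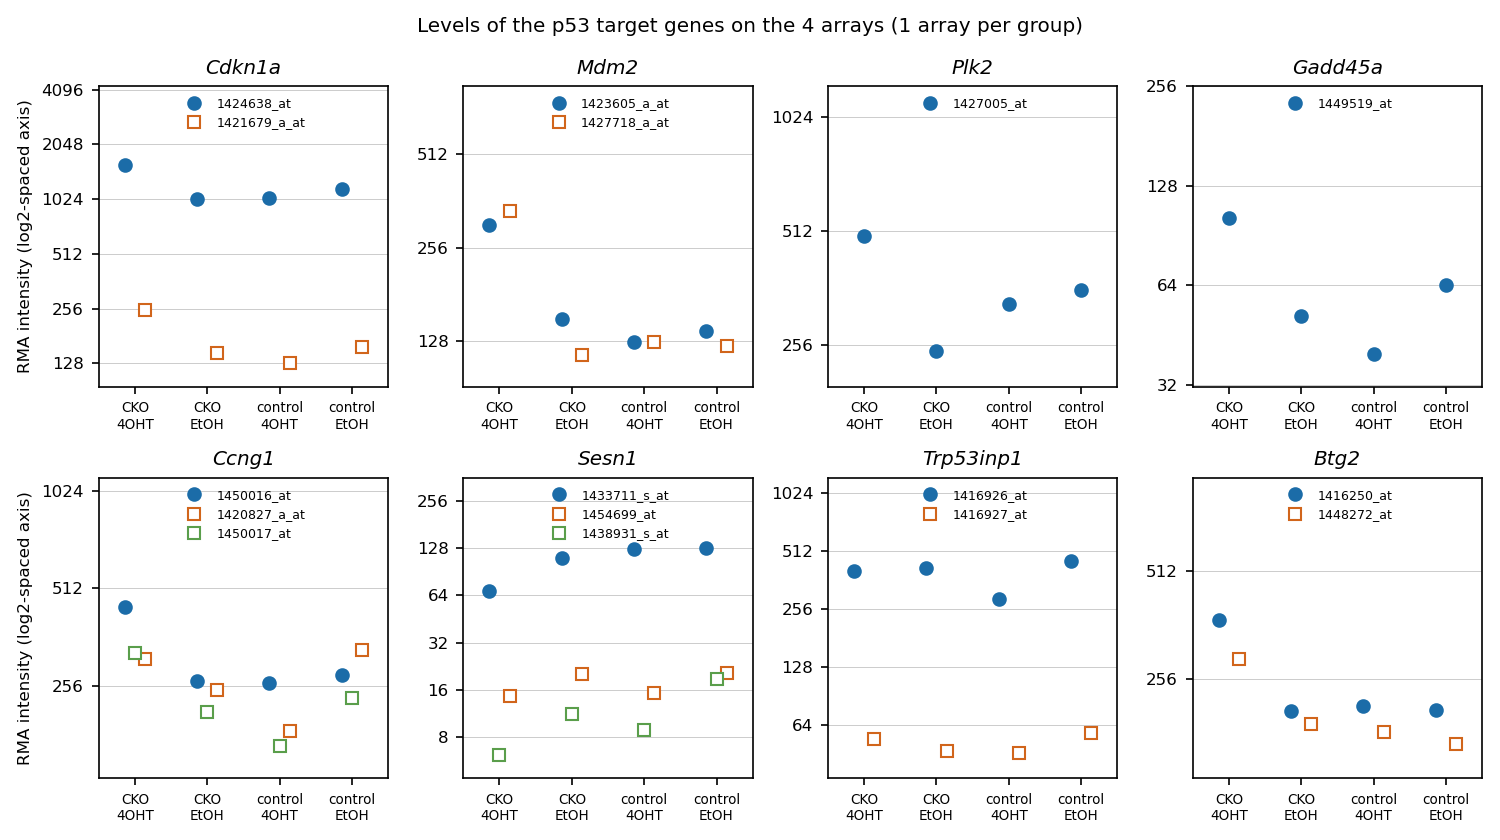
RMA intensity (log2-spaced vertical axis) of every probe set of the 8 genes on the 4 arrays, 1 point per probe set and array; filled circles are the brightest probe set of a gene and open squares its other probe sets. In Cdkn1a, Mdm2, Plk2, Gadd45a and Btg2 the CKO 4OHT points lie above the points of the same probe set on the other 3 arrays, as do 2 of the 3 Ccng1 probe sets, while all 3 Sesn1 probe sets have their lowest point there.

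Mdm2, the ubiquitin ligase that p53 induces and that in turn removes p53, stood furthest apart. Its brightest probe set (1423605_a_at) had 303 intensity units in CKO 4OHT, 151 in CKO EtOH, 127 in control 4OHT and 138 in control EtOH. The CKO 4OHT value was 2.01-fold above the highest of the other 3, which among themselves spanned 1.19-fold. On the log2 scale the difference was 1.01 against CKO EtOH and 1.25 against control 4OHT. The second probe set (1427718_a_at) gave 336 in CKO 4OHT, 115 in CKO EtOH, 127 in control 4OHT and 124 in control EtOH. By that probe set CKO 4OHT was 2.65-fold above the next array, so both readings of Mdm2 place the 3 other cultures close together and CKO 4OHT above them. Mdm2 was the 1 member at least 2-fold above every other array, a distance that 0.751% of all measured genes reached in CKO 4OHT.

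Cdkn1a encodes p21, the inhibitor of cyclin-dependent kinases through which p53 halts the cell cycle. Its brightest probe set (1424638_at) read 1580 in CKO 4OHT, 1032 in CKO EtOH, 1037 in control 4OHT and 1168 in control EtOH. The second (1421679_a_at) read 252 in CKO 4OHT, 146 in CKO EtOH, 129 in control 4OHT and 157 in control EtOH. Both put CKO 4OHT on top, 1.35-fold and 1.60-fold above the next array, with the other 3 arrays spanning 1.13-fold and 1.22-fold. The log2 differences were 0.61 and 0.79 against CKO EtOH, and 0.61 and 0.97 against control 4OHT. Of the 9 promoter windows only its upstream window and that of Ccng1 held the pair of adjacent decamers.

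Gadd45a, a stress protein that acts in growth arrest and DNA repair, had the widest range of the 8 genes by their brightest probe sets, 1.36 on the log2 scale, while the second Mdm2 probe set spanned 1.54. Its probe set (1449519_at) had 102 in CKO 4OHT, 51.4 in CKO EtOH, 39.6 in control 4OHT and 63.9 in control EtOH. CKO 4OHT was 1.59-fold above the next array, control EtOH, and the other 3 arrays spanned 1.61-fold, about as much. The log2 difference was 0.98 against CKO EtOH and 1.36 against control 4OHT. Gadd45a was lowest in control 4OHT, where it lay below control EtOH by -0.69 on the log2 scale.

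Plk2, a polo-like kinase induced by p53 and by growth factors, had 497 in CKO 4OHT, 247 in CKO EtOH, 329 in control 4OHT and 357 in control EtOH (1427005_at). Plk2 was lowest in CKO EtOH, and its log2 difference was 1.01 against CKO EtOH and 0.59 against control 4OHT. It was 0.53 lower in CKO EtOH than in control EtOH on the log2 scale, and 98.9% of measured genes had a larger value in that comparison. CKO 4OHT was 1.39-fold above the next array, and the other 3 spanned 1.45-fold.

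Btg2, an antiproliferative protein that binds transcription and mRNA decay factors, showed a clean separation of 1 array from 3. Its brightest probe set (1416250_at) had 374 in CKO 4OHT, 208 in CKO EtOH, 215 in control 4OHT and 209 in control EtOH. The second (1448272_at) had 291 in CKO 4OHT, 191 in CKO EtOH, 182 in control 4OHT and 169 in control EtOH. CKO 4OHT was 1.74-fold and 1.52-fold above the next array, whereas the other arrays spanned 1.04-fold and 1.13-fold. The log2 differences were 0.85 and 0.60 against CKO EtOH, and 0.80 and 0.68 against control 4OHT.

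Ccng1, cyclin G1, takes part in the feedback from p53 to Mdm2, and its 3 probe sets did not tell the same story. The brightest (1450016_at) had 448 in CKO 4OHT, 265 in CKO EtOH, 261 in control 4OHT and 276 in control EtOH. The next (1420827_a_at) had 310 in CKO 4OHT, 248 in CKO EtOH, 185 in control 4OHT and 329 in control EtOH, so here control EtOH was highest. The other (1450017_at) had 322 in CKO 4OHT, 211 in CKO EtOH, 167 in control 4OHT and 234 in control EtOH. All 3 were higher in CKO 4OHT than in CKO EtOH, by 0.76, 0.32 and 0.61 on the log2 scale, and than in control 4OHT, by 0.78, 0.74 and 0.95. They diverged for the drug in cells without CreER, with differences of -0.08, -0.83 and -0.49.

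Sesn1, a sestrin that restrains the growth kinase mTORC1, was the exception in direction. Its brightest probe set (1433711_s_at) had 67.8 in CKO 4OHT, 111 in CKO EtOH, 127 in control 4OHT and 128 in control EtOH, 1.63-fold below the lowest of the other 3 in CKO 4OHT. The log2 difference was -0.71 against CKO EtOH and -0.90 against control 4OHT. The ending of this probe set's name marks a design that can bind more than 1 transcript. A specific probe set (1454699_at) sat at the level filter, with 14.6 in CKO 4OHT, 20.2 in CKO EtOH, 15.3 in control 4OHT and 20.6 in control EtOH, and differed from control 4OHT by only -0.07. The dimmest (1438931_s_at, 6.14 to 18.9) was under the filter. The lower Sesn1 level against CKO EtOH was thus read by each probe set (-0.71, -0.47 and -0.88), and the size against control 4OHT depended on which was used.

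Trp53inp1 encodes a nuclear protein that binds p53 and takes part in cell death and autophagy. It had 401 in CKO 4OHT, 416 in CKO EtOH, 289 in control 4OHT and 456 in control EtOH (1416926_at). The low value was that of control 4OHT, and the other 3 arrays were close to each other. The difference was -0.05 against CKO EtOH and 0.47 against control 4OHT on the log2 scale. A dimmer probe set (1416927_at) had 54.1 in CKO 4OHT, 47.4 in CKO EtOH, 45.8 in control 4OHT and 58.7 in control EtOH, with differences of 0.19 and 0.24.

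With CreER present, CKO 4OHT and CKO EtOH differ by the inducer. Of the 8 genes, 6 were above 0 (51.3% of all measured genes) and 2 below, and Plk2 (1.01) and Mdm2 (1.01) were at least 2-fold higher, where 1.78% of all measured genes were. None was at least 2-fold lower (background 1.86%). Gadd45a, at 0.98, fell just short of that mark. At 1.5-fold, 6 genes were higher and 1, Sesn1, lower, against 5.67% and 5.47% of all measured genes. By the brightest probe sets both 2-fold calls were marginal. With each array centred on the median of the measured genes, with quantile normalization repeated, or with 16 added before taking logs, neither reached 2-fold. Mdm2 was then less than 2-fold above the next array. The second Mdm2 probe set was at 1.54 in the values as deposited, and Plk2 had no further probe set. Counted over probe sets, 12 of the 15 that passed the level filter were above 0.

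With the drug present in each, CKO 4OHT and control 4OHT differ by CreER. Here 7 of 8 genes were above 0 (52% of all measured genes) and Gadd45a (1.36) and Mdm2 (1.25) were at least 2-fold higher, against 1.45% of all measured genes. As few as 0.66% of measured genes had a larger difference than Gadd45a and 0.83% a larger one than Mdm2. None was at least 2-fold lower (background 2.24%). At 1.5-fold, 6 genes were higher and Sesn1 was lower, against 6.65% and 6.04% of all measured genes. This comparison and the previous one share the CKO 4OHT array, so they are not separate readings of it, and control and CKO cells also came from different mice.

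**Figure D2:**
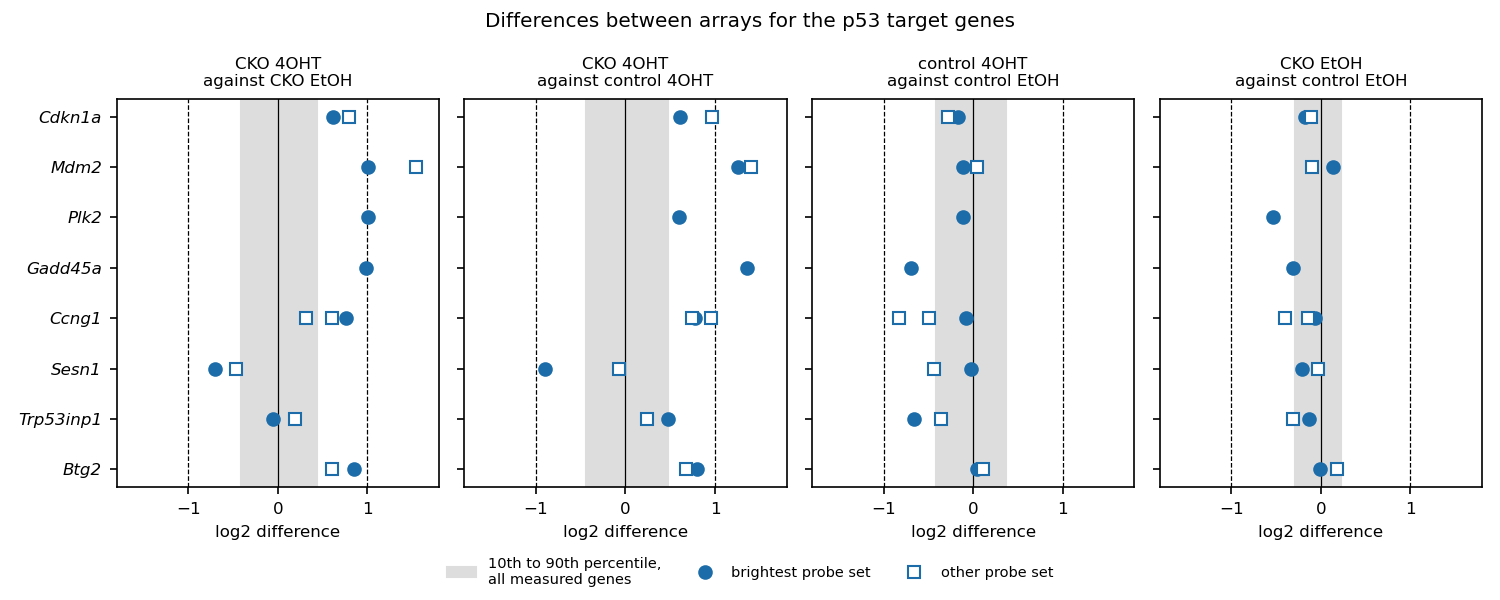
Log2 difference (horizontal axis) of each p53 target gene in 4 comparisons between arrays, with filled circles for the brightest probe set, open squares for other probe sets that passed the level filter, dashed lines at 2-fold and a grey band from the 10th to the 90th percentile of all measured genes. Against CKO EtOH and against control 4OHT the brightest probe sets of Cdkn1a, Mdm2, Plk2, Gadd45a, Ccng1 and Btg2 lie to the right of the band and that of Sesn1 to the left; in the comparisons without CKO 4OHT most points lie within or left of it.

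The 2 comparisons without CKO 4OHT show how far the genes moved among the other cultures. For control 4OHT against control EtOH, the drug without CreER, 7 of 8 genes were below 0 (56.6% of all measured genes), with a median of -0.12 beside -0.04 for all measured genes. The median was -0.35 when all probe sets of a gene were averaged, dim ones included, with Sesn1 at -0.51 and Ccng1 at -0.47. None reached 2-fold in either direction (background 1.27% higher and 0.241% lower). By the brightest probe sets Gadd45a (-0.69) and Trp53inp1 (-0.66) had the largest differences (a further Ccng1 probe set was at -0.83), and 2.01% and 2.53% of measured genes lay lower than they did. By the brightest probe sets these 2 genes were the members lower at 1.5-fold, against 3.91% of all measured genes. For CKO EtOH against control EtOH the median was -0.16 beside -0.03 for all measured genes, again with 7 of 8 genes below 0 (56.2%) and none at 2-fold (background 0.0536% higher and 0% lower). Mdm2 (0.13) was the 1 gene above 0 there.

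The drug effect could also be compared between genotypes, as the difference in CKO cells minus the difference in control cells. This value was positive for 7 of 8 genes (54.7% of all measured genes), with a median of 0.82 beside 0.04 for all measured genes. Gadd45a (1.67), Plk2 (1.13) and Mdm2 (1.12) passed 2-fold, against 2.75% of all measured genes, and none passed it downward (background 2.9%). The drug difference had opposite signs in the 2 genotypes for 5 of 8 genes, a share near the 48.7% of all measured genes. Sesn1 was at -0.69 by its brightest probe set and -0.04 by the specific one. At 1.5-fold, 7 genes were higher and 1 lower (background 11.1% and 8.51%). All 4 arrays enter each of these values, each with its own error.

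Probe sets of the same gene give the only measure of error within these arrays, and it covers the probes and not the cultures. Over 2524 genes with a further measured probe set, the log2 difference of CKO 4OHT and CKO EtOH changed by a median of 0.18 between probe sets and by 0.46 at the 90th percentile. The differences of Cdkn1a, Mdm2, Plk2, Gadd45a, Ccng1, Btg2 and Sesn1 by their brightest probe sets exceeded that 90th percentile in size, and that of Trp53inp1 did not exceed the median. A further Ccng1 probe set, at 0.32, was below that percentile, and the specific Sesn1 probe set, at -0.47, was barely past it in size. Plk2 and Gadd45a had no further probe set to compare. Variation between cultures of the same kind was not measured.

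Other p53 targets, listed by role, had smaller median differences. Of 39 genes, 32 were measured, and their median was 0.18 against CKO EtOH and 0.19 against control 4OHT. Against each of these arrays 22 of the 32 were above 0, beside 51.3% and 52% of all measured genes. None reached 2-fold in either comparison, beside 1.78% and 1.45% of all measured genes higher and 1.86% and 2.24% lower. That count is close to these shares. In CKO 4OHT 17 of the 32 had their highest value and 8 their lowest, beside 31.6% and 31.1% of all measured genes.

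By role, the arrest and feedback genes had medians of 0.30 and 0.39 against CKO EtOH and control 4OHT. Of 9 genes 8 were above 0 in each (51.3% and 52% of all measured genes). None passed 2-fold in either comparison, where 1.78% and 1.45% of all measured genes were higher and 1.86% and 2.24% lower. Sfn, the 14-3-3 sigma protein that arrests keratinocytes, had 941 in CKO 4OHT, 719 in CKO EtOH, 728 in control 4OHT and 679 in control EtOH. Rps27l, a ribosomal protein homolog, was 1071 in CKO 4OHT, 993 in CKO EtOH, 817 in control 4OHT and 906 in control EtOH, with other probe sets at -0.17 and -0.07 against CKO EtOH.

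Apoptosis genes had medians of 0.21 and 0.39, with 7 of 11 above 0 in each (51.3% and 52% of all measured genes). Aen, a nuclease induced by p53, had 272 in CKO 4OHT, 190 in CKO EtOH, 153 in control 4OHT and 227 in control EtOH. Its second probe set had 64.6 in CKO 4OHT, 45.5 in CKO EtOH, 42.4 in control 4OHT and 45.7 in control EtOH, again highest in CKO 4OHT. Its drug effect was 1.09 larger in CKO than in control cells on the log2 scale by the brightest probe set and 0.61 by the second.

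DNA repair genes had medians of 0.16 and 0.13 over 6 genes. Polk, a polymerase that bypasses DNA lesions, had 113 in CKO 4OHT, 81.9 in CKO EtOH, 76.1 in control 4OHT and 114 in control EtOH. It was thus highest in control EtOH, with CKO 4OHT close below. The dimmer Polk probe set was highest in CKO 4OHT, with 26.2 there, 24.2 in CKO EtOH, 19.3 in control 4OHT and 22.0 in control EtOH. The drug effect of Polk differed by 1.05 between the genotypes, and by 0.30 by the dimmer probe set.

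Metabolism and stress targets had medians of -0.02 and -0.05 over 6 genes, and their 2 brightest members were lowest in CKO 4OHT, as Sesn1 was. Ddit4, an inhibitor of mTORC1, had 305 in CKO 4OHT, 575 in CKO EtOH, 452 in control 4OHT and 522 in control EtOH. Pltp, a phospholipid transfer protein, had 101 in CKO 4OHT, 197 in CKO EtOH, 123 in control 4OHT and 158 in control EtOH. Sesn2, the other sestrin of the list, stayed between 42.8 and 49.9 on the 4 arrays.

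Paralogs of the members had medians near 0. Over 12 measured paralogs the median was -0.05 against CKO EtOH and -0.09 against control 4OHT. Above 0 were 4 and 3 of them, beside 51.3% and 52% of all measured genes. None was past 2-fold, beside 1.78% and 1.45% of all measured genes higher and 1.86% and 2.24% lower. Gadd45b had 379 in CKO 4OHT, 325 in CKO EtOH, 411 in control 4OHT and 316 in control EtOH. It was thus highest in control 4OHT, the array on which Gadd45a was lowest. Btg1 had 568 in CKO 4OHT, 594 in CKO EtOH, 595 in control 4OHT and 522 in control EtOH, without the separation seen in Btg2. The lists were not tested against each other.

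Genes of the p53 family and its regulators had medians of -0.20 and -0.08 over 14 measured genes. None of them was past 2-fold, beside 1.78% and 1.45% of all measured genes higher and 1.86% and 2.24% lower. Trp63, the p53 relative that maintains basal keratinocytes, had 320 in CKO 4OHT, 364 in CKO EtOH, 407 in control 4OHT and 383 in control EtOH. A second Trp63 probe set had 66.8 in CKO 4OHT, 53.03 in CKO EtOH, 66.2 in control 4OHT and 46.0 in control EtOH, so the Trp63 probe sets disagreed. Cop1, a ubiquitin ligase for p53, ranged from 267 in CKO 4OHT to 310 in control 4OHT. The stress kinase genes Atm and Chek1 were near the level filter on most arrays, at 17.7 to 29.2 and 25.4 to 45.9.

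Cell cycle genes known to be lowered when p53 is active lay on the other side. All 11 measured genes were lower in CKO 4OHT than in CKO EtOH, with a median of -0.43, where 48.6% of all measured genes were lower. Against control 4OHT 10 of 11 were lower, with a median of -0.45 (47.8% of all measured genes). Mki67, the marker of proliferating cells, had 126 in CKO 4OHT, 254 in CKO EtOH, 230 in control 4OHT and 281 in control EtOH. At -1.02 against CKO EtOH it was the 1 gene of the list past 2-fold, where 1.86% of all measured genes were lower. These genes are known to follow the share of dividing cells. In CKO EtOH against control EtOH their median was -0.14, with 11 of 11 below 0 (56.2% of all measured genes). In control 4OHT against control EtOH it was -0.20, with 9 of 11 below 0 (56.6% of all measured genes). Whether the share of dividing cells plays a part in the levels of the p53 target genes was not tested.

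**Figure D3:**
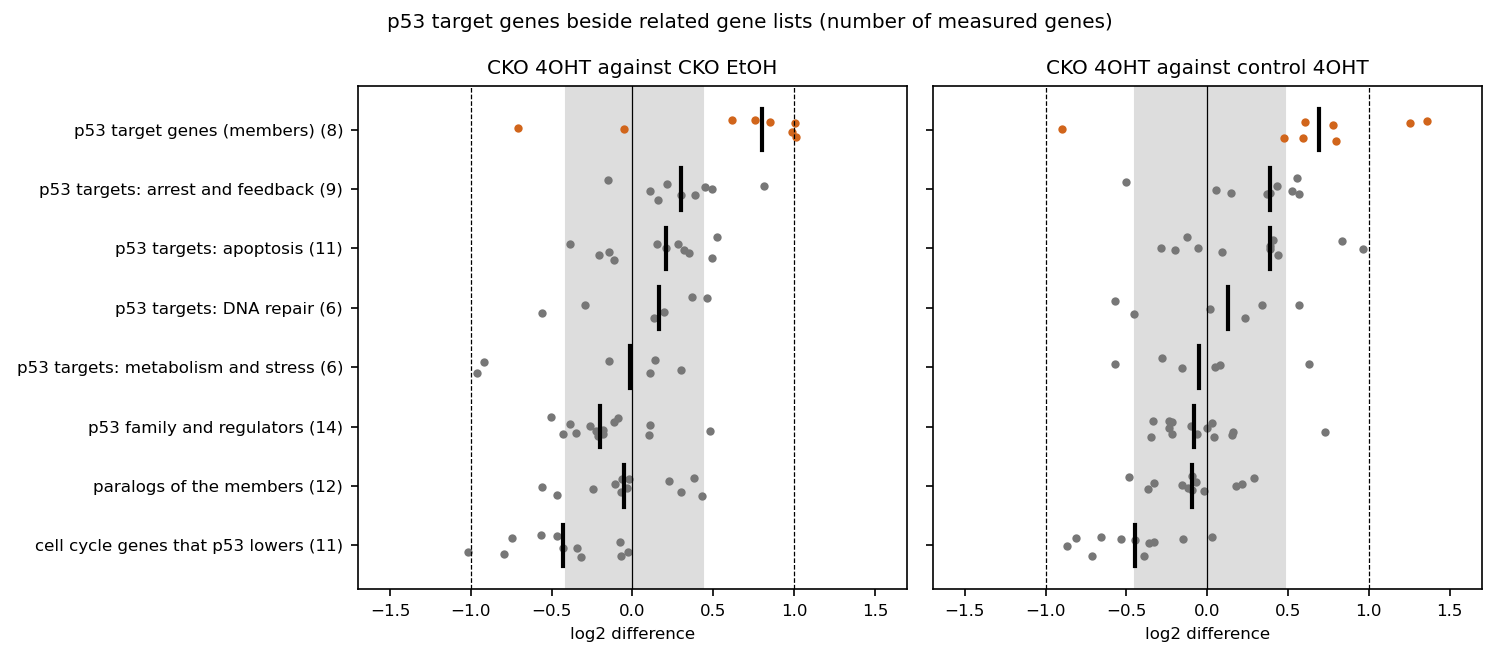
Log2 differences (horizontal axis) of the 8 p53 target genes (orange) and of the measured genes of 7 related lists (grey), each by its brightest probe set, for CKO 4OHT against CKO EtOH and against control 4OHT. Black bars are medians, dashed lines mark 2-fold and the grey band spans the 10th to the 90th percentile of all measured genes; the medians of the 8 genes, 0.80 and 0.69, lie right of the band, and those of the cell cycle genes, -0.43 and -0.45, lie at its left edge.

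The genes whose profile over the 4 arrays was most like that of Gadd45a, the member with the widest range by brightest probe sets, were found by the Euclidean distance between log2 values centred on each gene's own mean. The 5 nearest were Kank3 (0.11), Tnfrsf18 (0.12), Nop56 (0.16), Mmp3 (0.17) and Cd44 (0.17). Tnfrsf18, the receptor GITR, had 221 in CKO 4OHT, 115 in CKO EtOH, 87.4 in control 4OHT and 129 in control EtOH. Cd44, a hyaluronan receptor, had 1314 in CKO 4OHT, 702 in CKO EtOH, 544 in control 4OHT and 758 in control EtOH. Kank3 and Mmp3 reached the level filter on few arrays. Among the other members Mdm2 was nearest, at 0.44, with 104 measured genes nearer than it, and Sesn1 was the furthest, at 1.68. With 4 points per gene many profiles are alike, so this is a description of these arrays.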

How the data were processed

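Affymetrix 430A mouse arrays read the RNA of 4 keratinocyte cultures, 1 array per group, with groups taken from the labels. The authors deposited linear RMA intensities of 22626 probe sets (2.66 to 7167), per the submitters' processing notes, which name RMA without a version. RMA aligns the arrays and compresses dim differences. Array medians were 19.95 to 20.22, no detection calls were used, and no array was a copy of another (Pearson correlations of log2 values 0.986 to 0.995).

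Here log2 was taken with no pseudocount. Gene names came from the platform annotation, with 20380 probe sets naming 1 gene, 691 several and 1555 not named, and sequences from RefSeq. A gene was represented by its probe set with the highest mean log2 value, and counted as different at 2-fold. No test or p-value is possible with 1 array per group. Counting steps were tested on simulated data with planted shifts larger than the differences of the members, so this does not bear on calls near 2-fold. All members were to be named, with Prdm1 and Esr1 as the check of the labels. Of each list the genes past 2-fold in a comparison or on an array, otherwise the 2 brightest measured ones, were to be named. Sesn2, Atm, Chek1 and the cell type marker genes were named after their values were seen. The members and lists were chosen with earlier results of these data known, and the motif rule after the windows were read. Alternatives changed the level filter, the probe set, the normalization, the pseudocount and the fold threshold. Work was done in Python 3.11.15 with pandas 2.3.3 and numpy 2.4.6.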

Additional observations from a re-analysis of the deposited data

Results flagged for a closer look

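For 5 of 8 members the drug difference had opposite signs in cells with and without CreER, as it had for 48.7% of all measured genes, and this contrast was not tested. The log2 difference in CKO cells, that in control cells and the CKO minus control value were 0.61, -0.17 and 0.79 for Cdkn1a, and 1.01, -0.11 and 1.12 for Mdm2. They were 1.01, -0.12 and 1.13 for Plk2, 0.98, -0.69 and 1.67 for Gadd45a, and 0.76, -0.08 and 0.84 for Ccng1. In control cells the values of Cdkn1a, Mdm2, Plk2 and Ccng1 by their brightest probe sets are smaller in size than 0.23, the median disagreement between probe sets of a gene. The second Mdm2 probe set was at 0.04, whereas the second of Cdkn1a was at -0.29 and the further ones of Ccng1 at -0.83 and -0.49. Without replicates the sign in control cells is not settled for these genes. The median of the 8 members was 0.80 in CKO cells and -0.12 in control cells, and the median of the per-gene differences was 0.82. For the 32 other p53 targets these medians were 0.18, -0.13 and 0.24.

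Opposite signs were also seen for Aen (0.52 in CKO and -0.57 in control cells, a difference of 1.09), Polk (0.46, -0.59 and 1.05) and Rps27l (0.11, -0.15 and 0.26). Trp63 (-0.19, 0.09 and -0.27), Cop1 (-0.11, 0.18 and -0.29) and Btg1 (-0.06, 0.19 and -0.25) had the reverse order of signs. Differences as small as those of Rps27l, Trp63, Cop1 and Btg1 are of the size by which probe sets of the same gene differ.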

How the results depend on the processing

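Of 83 medians and counts recomputed under alternatives, 71 stayed within the tolerance and 12 moved; of 200 values of single members 187 stayed and 13 moved, and no median or called value changed sign, while values near 0 of Trp53inp1, Sesn1 and Btg2 did so under some settings. The tolerance was 1.5 times for a count and, for a log2 difference, the median disagreement between probe sets of a gene. The median of the members for control 4OHT against control EtOH was -0.35 when all probe sets of a gene were averaged. With repeated quantile normalization, with arrays centred on the median of the measured genes, and with a pseudocount of 16, the count of members at 2-fold against CKO EtOH was 0 and the count apart on CKO 4OHT was 0. With a 1.5-fold threshold the counts were 7 against CKO EtOH, 7 against control 4OHT, 2 for control 4OHT against control EtOH, 8 for the difference of drug effects and 5 apart on CKO 4OHT (5.67% of all measured genes were apart at that fold). Cdkn1a, Mdm2, Plk2, Gadd45a, Ccng1 and Btg2 kept a positive sign against CKO EtOH and control 4OHT under the 5 alternatives that change single values. No paired analysis was possible because each group has 1 array. Without replicates or detection calls, no error of culture can be given, and levels near the filter, as of Sesn1 by its specific probe set, are the least certain.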
